A study of Mus musculus with 8 samples.

Results

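The endothelial genes described here are 37 of the 19938 genes that the array table allowed to be tested. They were chosen by name, from a list of genes known to mark or serve the cells that line the sinusoids and vessels of the liver, and each was read through its brightest probe set that names that gene alone. All 37 had such a probe set, and no filter on level was applied. They fall into 16 genes enriched in sinusoidal endothelium and 21 genes that endothelial cells of most vessels share.

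The samples are RNA from the livers of C57BL6 mice that had fasted for 17 h, each hybridised to its own 1-colour Affymetrix Mouse Gene 1.0 ST array. The hydrogen water group (4 arrays) came from mice that had drunk water with dissolved hydrogen for 4 weeks, starting at 7 weeks of age. The control group (4 arrays) was named as fasted controls in the sample titles, and no separate text describes its drinking water. The labels carry the same treatment text for all 8 samples, controls included, so groups were taken from the titles. Housing at 24 °C was common to both groups, and no genotype, sex or further agent is named for either group. Whether the 4 arrays of a group come from 4 different mice is not written in the labels, so the p-values may measure only the spread between these samples.

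Liver sinusoids are capillaries whose endothelium has open pores and almost no basement membrane, so plasma reaches the hepatocytes directly. Their lining cells take up hyaluronan, modified proteins and immune complexes through scavenger receptors and lectins, and they send Wnt, R-spondin and BMP signals to the hepatocytes beside them. Other endothelial genes, such as the VEGF and angiopoietin receptors and the proteins of cell junctions, are common to blood vessels in general. Whole liver was measured, so more endothelial cells and more RNA per endothelial cell cannot be told apart in any value below.

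The arrays were alike in overall signal. The median log2 signal of an array lay between 5.27 and 5.37, and each array's mean correlation with its own group lay between 0.989 and 0.994. The hepatocyte gene Alb stood at 14.38 ± 0.07 (SD, n = 4) in controls and 14.33 ± 0.05 (SD, n = 4) with hydrogen water. Of the endothelial genes, 35 of 37 lay above the median log2 level of all genes (5.87); Icam2 and Cd34 lay below it, at 5.66 and 5.55. Mean log2 signals ran from 6.17 (Wnt2) to 10.43 (Clec4g) among sinusoid-enriched genes and from 5.55 (Cd34) to 9.08 (Ptprb) among pan-endothelial genes. These signals depend on the probes of each gene, so the levels of different genes, or of both classes, were not ranked against each other.

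Most endothelial genes had a higher mean signal with hydrogen water, but none passed the test over all genes. Many of the extreme values lay on 2 of the 8 arrays. The mean was higher with hydrogen water in 31 of the 37 genes, against 48.7% of all genes tested. The median log2 difference was 0.19 over the 37, against -0.00 over all genes. By limma with Benjamini-Hochberg adjustment over 19938 genes, 0 of the 37 had an adjusted p under 0.05, beside 0% of all genes, and the lowest adjusted p among the 37 was 0.617. At an unadjusted p under 0.05, 8 of the 37 were higher with hydrogen water (Stab1, Stab2, Eng, Pecam1, Flt1, Esam, Flt4 and Ptprb), where 3.60% of all genes were called in that direction. None of the 37 was called lower at that threshold, where 3.57% of all genes were. In 5 genes the groups did not overlap, with hydrogen water above control throughout (Stab1, Stab2, Pecam1, Eng and Esam), beside 1.76% of all genes; in the other direction there were 0, beside 2.01% of all genes. The genes cannot be counted as independent of each other, since many of them varied together from array to array. Whether shared cells account for this was not tested.

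Hydrogen water 2 and control 2 carried the extremes. Hydrogen water 2 was the highest of the 8 arrays in 23 of the 37 genes and lay above the gene's own mean in 35. Control 2 was the lowest array in 17 of the 37 and lay below the gene's mean in all but 6. Hydrogen water 1, by contrast, lay above the gene's mean in only 12 of the 37, fewer than control 1 (23) or control 4 (15). Control 2 and hydrogen water 2 were then both left out, a choice made after their values were seen. In that fit 22 of the 37 genes were higher with hydrogen water, against 48.3% of all genes, with a median log2 difference of 0.04. The pair was chosen because it held the extremes of these genes, so leaving it out had to lower the difference. The fit is therefore no separate evidence about those arrays. In that fit 5 of the 37 did not overlap upward, where 6.21% of all genes did not, since 3 arrays a group separate more easily than 4. Without hydrogen water 2 alone the count was 26 and the median 0.13, and without control 2 alone they were 29 and 0.10. Without hydrogen water 1 alone they were 32 and 0.26, and without control 1 alone 32 and 0.27. With each of the remaining arrays left out the count was 29 to 32 and the median 0.18 to 0.23. Array weights fitted over all genes were highest for control 2 (1.67) and lowest for control 3 (0.424), and hydrogen water 2 had 0.808. The within-group SD of the 37 genes had a median of 0.26 on the log2 scale, against 0.18 over all genes.

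**Figure D1:**
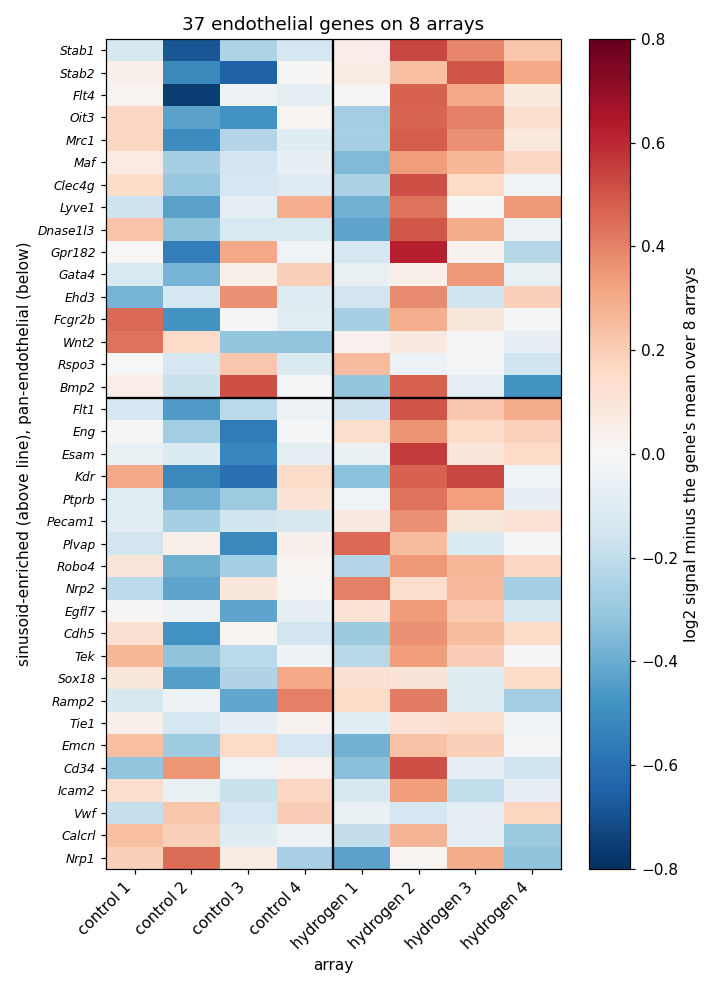
Log2 signal minus the gene's own mean over the 8 arrays, for 37 endothelial genes (rows, sorted by difference within class) and 8 arrays (columns); red is above the mean and blue below. The column of hydrogen water 2 is red in 35 of 37 rows, and that of control 2 is blue in most rows, whereas hydrogen water 1 is mixed.

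The scavenger receptors Stab1 and Stab2, which take up modified proteins, had the largest differences of the sinusoid-enriched genes. Macrophages also express Stab1. Stab1 (transcript cluster 10418506) had log2 signals of 7.76, 7.20, 7.64 and 7.75 on controls 1 to 4 and 7.94, 8.42, 8.28 and 8.11 on hydrogen water 1 to 4. Every hydrogen water array lay above every control array, with a gap of 0.186 between the nearest values. The group means were 7.59 ± 0.26 (SD, n = 4) and 8.19 ± 0.21 (SD, n = 4), a log2 difference of 0.60 (SE 0.15, 95% interval 0.28 to 0.92), or 1.51-fold; limma gave an adjusted p of 0.617. Stab2 (transcript cluster 10371506) read 7.93, 7.37, 7.24 and 7.90 in controls and 7.95, 8.13, 8.39 and 8.20 with hydrogen water. Its groups were apart by only 0.0188, since controls 1 and 4 stood almost as high as hydrogen water 1, while controls 2 and 3 were low. The Stab2 difference was 0.56 (SE 0.17, 95% interval 0.19 to 0.92; limma adjusted p = 0.636). Without both control 2 and hydrogen water 2 the differences of Stab1 and Stab2 were 0.39 and 0.49, and these were the 2 of the 37 genes then higher at an unadjusted p under 0.05, where 3.91% of all genes were called in that direction.

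The other uptake receptors of the sinusoid had smaller differences with overlapping groups. The mannose receptor Mrc1, which macrophages also express, ran from 7.45 to 8.12 in controls and from 7.69 to 8.44 with hydrogen water, a log2 difference of 0.34 (95% interval -0.05 to 0.72). The hyaluronan receptor Lyve1 ran from 7.48 to 8.20 and from 7.52 to 8.34, a difference of 0.19 (95% interval -0.23 to 0.60). Clec4g, a C-type lectin of sinusoidal cells, read 10.58, 10.13, 10.30 and 10.33 in controls and 10.18, 10.95, 10.59 and 10.40 with hydrogen water; its highest value was on hydrogen water 2 and its lowest on control 2. The Clec4g difference was 0.19 with all arrays and -0.02 without those 2. A second probe set of Clec4g, at log2 signals of 4.05 to 4.59, differed by -0.01. Fcgr2b, the inhibitory Fc receptor through which these cells clear immune complexes, differed by 0.06 (95% interval -0.34 to 0.45), and its highest value of all arrays was on control 1 (8.89).

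A further 4 genes mark sinusoidal cells without being uptake receptors. Oit3, a protein with a zona pellucida domain, ran from 7.45 to 8.10 in controls and from 7.66 to 8.40 with hydrogen water, a log2 difference of 0.36 (95% interval -0.05 to 0.77). The secreted DNase Dnase1l3 differed by 0.17, the receptor gene Gpr182 by 0.14 and Ehd3, which acts in endocytic membrane traffic, by 0.12, with SEs between 0.17 and 0.20. Without control 2 and hydrogen water 2, left out for their extreme values, these last 3 differed by -0.05, -0.20 and -0.01.

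The 3 angiocrine signals to hepatocytes had a median log2 difference of 0.02; their difference from the other sinusoid-enriched genes was not tested. Wnt2, a ligand that maintains the pericentral zone, read 6.60, 6.32, 5.86 and 5.85 in controls and 6.20, 6.24, 6.16 and 6.10 with hydrogen water, a log2 difference of 0.02 (95% interval -0.33 to 0.36). The hydrogen water arrays lay within the range of the controls. Rspo3, an R-spondin that amplifies Wnt signalling around the central vein, differed by 0.02 (95% interval -0.25 to 0.28); both differences changed sign, to between -0.02 and -0.01, under quantile normalization and with arrays centred on their medians. Bmp2, which with Bmp6 drives hepcidin in hepatocytes, read 8.01, 7.78, 8.47 and 7.95 in controls and 7.65, 8.43, 7.88 and 7.48 with hydrogen water, a difference of -0.19 (95% interval -0.62 to 0.25). Bmp2 was the only sinusoid-enriched gene with a lower mean under hydrogen water. Without control 2 and hydrogen water 2 its difference was -0.47 and its groups did not overlap, with a limma adjusted p of 0.60. In that fit 6.69% of all genes did not overlap in the lower direction, and 3.56% were lower at an unadjusted p under 0.05, as Bmp2 alone of the 37 was.

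Among transcription factors, Gata4, which specifies sinusoidal against continuous endothelium, differed by 0.13 (95% interval -0.17 to 0.44). Maf, a factor of sinusoidal cells that macrophages also use, differed by 0.21 (95% interval -0.12 to 0.53) and Sox18, a vascular SOX factor, by 0.14 (95% interval -0.20 to 0.47). In all 3 the groups overlapped.

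The VEGF receptors include Kdr, the main signalling receptor for VEGF-A, Flt1, which binds VEGF-A tightly and limits it, Flt4, the receptor for VEGF-C on lymphatic and sinusoidal cells, and the co-receptors Nrp1 and Nrp2. Flt1 read 6.62, 6.31, 6.55 and 6.72 in controls and 6.60, 7.27, 6.98 and 7.06 with hydrogen water, so that only hydrogen water 1 lay among the controls. Its log2 difference was 0.43 (SE 0.15, 95% interval 0.11 to 0.74; limma adjusted p = 0.643). Flt4 read 7.17, 6.39, 7.11 and 7.07 in controls and 7.16, 7.62, 7.46 and 7.23 with hydrogen water. Control 2 stood far below the other controls here; the difference was 0.44 (SE 0.17) with all arrays, 0.26 without control 2 and 0.17 without both control 2 and hydrogen water 2. Kdr, with 8.22, 7.40, 7.32 and 8.06 in controls and 7.59, 8.39, 8.45 and 7.89 with hydrogen water, differed by 0.33 but with the widest interval of these genes (-0.18 to 0.84), as each group held a pair of high and a pair of low arrays. Nrp2 differed by 0.26 (95% interval -0.08 to 0.61). Nrp1, which stellate cells also express, went the other way, from 8.73 to 9.44 in controls and 8.56 to 9.29 with hydrogen water, a difference of -0.22 (95% interval -0.61 to 0.18).

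In the angiopoietin axis, the phosphatase Ptprb, which restrains the receptor Tek, read 8.99, 8.70, 8.79 and 9.19 in controls and 9.05, 9.52, 9.41 and 9.02 with hydrogen water. Control 4 lay above hydrogen water 1 and 4. The log2 difference was 0.33 (SE 0.15; limma adjusted p = 0.687), and it was 0.17 without control 2 and hydrogen water 2. Tek, the angiopoietin receptor, and its partner Tie1 differed by 0.15 (SE 0.15) and 0.07 (SE 0.10).

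Endoglin and the junction genes Pecam1 and Esam were the pan-endothelial genes whose groups did not overlap. Eng and Pecam1, with Stab1, Stab2 and Flt1, kept an unadjusted p under 0.05 in limma with any 1 of the 8 arrays left out. Esam did so in 6 of the 8 fits, Flt4 in 5 and Ptprb in 3. These genes were already called with all 8 arrays and the fits share most arrays, so this is no separate support. The share of all genes that did so was not counted. Eng, a co-receptor for BMP9 and TGF-beta on vessel endothelium, read 8.81, 8.52, 8.24 and 8.79 in controls and 8.94, 9.16, 8.95 and 8.98 with hydrogen water. The hydrogen water arrays were tightly grouped above all controls, at 9.01 ± 0.10 (SD, n = 4) against 8.59 ± 0.27 (SD, n = 4), a log2 difference of 0.42 (SE 0.13; limma adjusted p = 0.638). Pecam1, the platelet and endothelial adhesion molecule CD31, read 6.64, 6.46, 6.57 and 6.60 in controls and 6.80, 7.09, 6.82 and 6.84 with hydrogen water. Its groups lay apart by 0.158, and its difference was 0.32 (SE 0.10; limma adjusted p = 0.638) or 1.25-fold. Esam, a tight junction adhesion molecule, read 7.07, 7.01, 6.60 and 7.04 in controls and 7.07, 7.68, 7.22 and 7.28 with hydrogen water; its groups were apart by only 0.00063, between control 1 and hydrogen water 1. The Esam difference was 0.38 (SE 0.15; limma adjusted p = 0.686). Without control 2 and hydrogen water 2 the differences of Eng, Pecam1 and Esam were 0.34, 0.21 and 0.29. Their unadjusted p in limma was then 0.0606, 0.0901 and 0.0879, and that of Flt1 was 0.123.

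The remaining junction and adhesion genes overlapped between groups. Cdh5, the VE-cadherin of endothelial junctions, differed by 0.24 (95% interval -0.12 to 0.60), Robo4, a guidance receptor that stabilises vessels, by 0.28 (95% interval -0.05 to 0.61) and Icam2, a leukocyte adhesion molecule, by -0.04 (95% interval -0.33 to 0.26). Egfl7, a secreted endothelial matrix protein, differed by 0.26 (95% interval -0.03 to 0.55). The adrenomedullin receptor consists of Calcrl and its accessory protein Ramp2, and these differed by -0.15 (95% interval -0.45 to 0.15) and 0.09 (95% interval -0.31 to 0.49).

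The last 4 pan-endothelial genes, Vwf, Emcn, Cd34 and Plvap, did not share a direction. Vwf, which carries factor VIII and tethers platelets, read 6.30, 6.70, 6.35 and 6.68 in controls and 6.42, 6.34, 6.41 and 6.65 with hydrogen water, a log2 difference of -0.05 (95% interval -0.32 to 0.22). The sialomucins Emcn and Cd34 differed by 0.01 (95% interval -0.33 to 0.36) and -0.03 (95% interval -0.43 to 0.38). Plvap, which forms the diaphragms of fenestrae and caveolae, differed by 0.29 (95% interval -0.05 to 0.64), with its highest value on hydrogen water 1 (8.58) and its lowest on control 3 (7.61). The median over these 4 was -0.01, against 0.26 over the 6 scavenger receptors and lectins and 0.33 over the 5 VEGF receptors and co-receptors. Without control 2 and hydrogen water 2 these medians were -0.02, 0.05 and 0.17. The difference between these groups of genes was not tested.

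**Figure D2:**
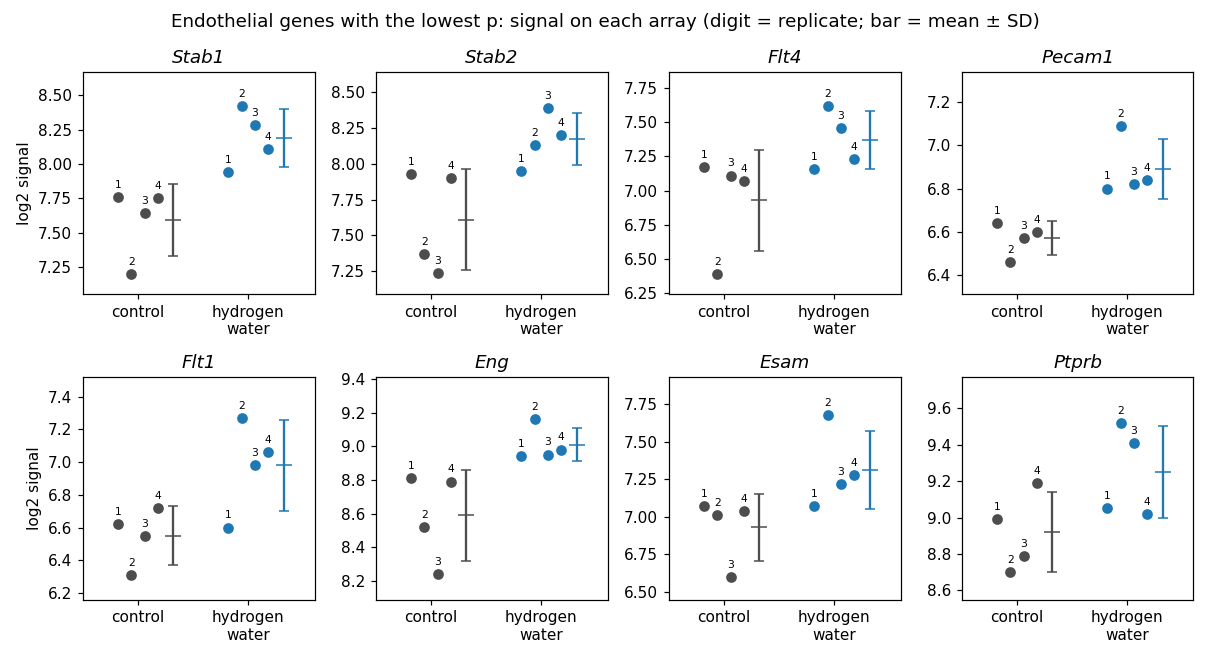
Log2 signal on each array (points, with replicate numbers) and mean ± SD (bars, n = 4 per group) for the 8 endothelial genes with an unadjusted p under 0.05. Hydrogen water lies wholly above control in Stab1, Stab2, Pecam1, Eng and, by 0.00063, Esam; in Flt1, Flt4 and Ptprb the groups overlap.

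Sinusoid-enriched and pan-endothelial genes differed by similar amounts between the groups. With hydrogen water the mean was higher in 15 of 16 sinusoid-enriched genes, with a median log2 difference of 0.18 (range -0.19 to 0.60), and in 16 of 21 pan-endothelial genes, with a median of 0.24 (range -0.22 to 0.43). The median of the first class less that of the second was -0.06, while the same gap between class means was 0.04, so its sign depended on the summary. Under quantile normalization the counts were 13 of 16 and 15 of 21, and they were the same with each array centred on its median, where 39.4% and 37.9% of all genes were higher. These scalings moved the median of all genes by -0.04, and at an unadjusted p under 0.05 they called 588 and 421 of all genes higher and 1179 and 1177 lower, against 718 and 711 as deposited. Without control 2 and hydrogen water 2 they were 8 of 16 and 14 of 21, with medians of 0.02 and 0.05.

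Array by array, both classes peaked on hydrogen water 2. Their lowest array differed: control 2 for the sinusoid-enriched and control 3 for the pan-endothelial genes. The mean of gene-centred log2 signals over the sinusoid-enriched genes was 0.06, -0.37, -0.06 and -0.05 on controls 1 to 4 and -0.15, 0.36, 0.18 and 0.03 on hydrogen water 1 to 4. Over the pan-endothelial genes it was 0.02, -0.16, -0.22 and 0.02 in controls and -0.07, 0.30, 0.12 and -0.01 with hydrogen water. In both classes control 1 stood above hydrogen water 1 and 4, so the groups overlapped. The classes parted most on control 2, where the sinusoid-enriched mean lay lower by -0.21, and on control 3, where it lay higher by 0.15.

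**Figure D3:**
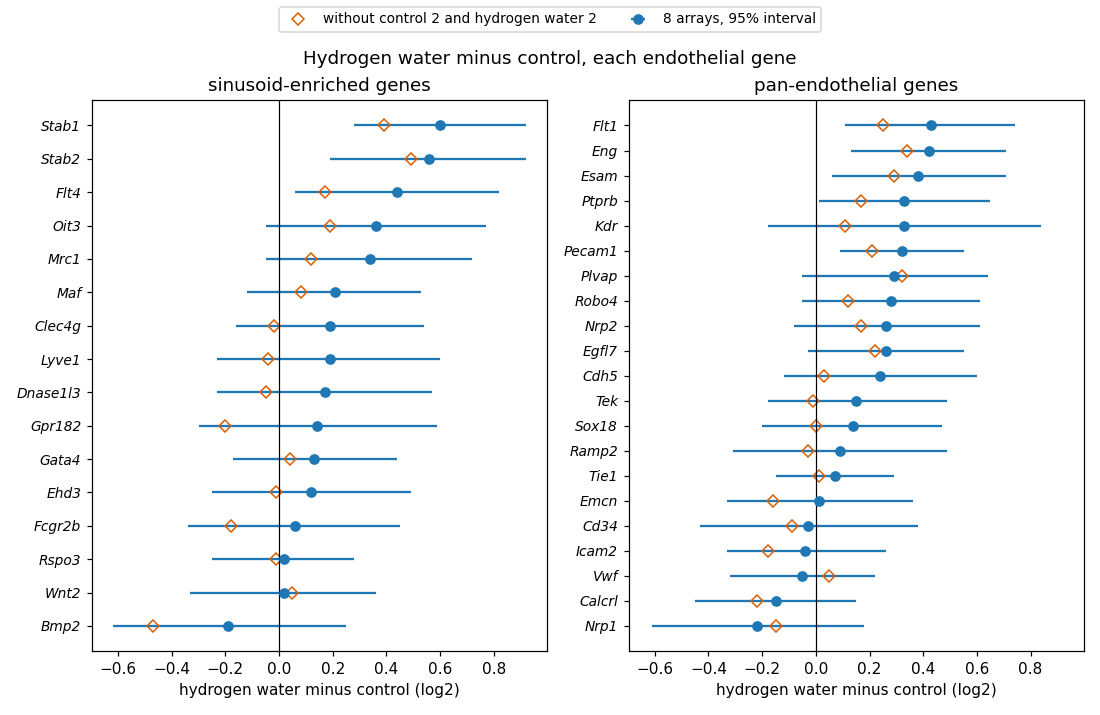
Log2 difference, hydrogen water minus control, for each gene of both classes with all 8 arrays (filled circles, bars are 95% intervals from limma) and without control 2 and hydrogen water 2 (open diamonds). Most intervals span 0, and without those 2 arrays 8 of 16 sinusoid-enriched and 14 of 21 pan-endothelial genes lie above 0.

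Markers of other cells differed between the same arrays. Of 13 Kupffer cell markers 13 had a higher mean with hydrogen water, against 48.7% of all genes tested. Their median log2 difference was 0.32, and 0 passed the adjusted threshold. The mean of the gene-centred list ran from -0.39 to 0.13 in controls and from -0.13 to 0.58 with hydrogen water, highest on hydrogen water 4, an array on which the endothelial classes stood at 0.03 and -0.01. The defining markers Clec4f, Vsig4, Cd163 and Csf1r differed by 0.43, 0.55, 0.63 and 0.59. Without control 2 and hydrogen water 2 all 13 Kupffer markers were higher, with a median of 0.37. Without hydrogen water 4 the count was 11 of 13 and the median 0.20, and Clec4f, Vsig4, Cd163 and Csf1r differed by 0.37, 0.32, 0.40 and 0.38. Without control 4 it was also 11 of 13, with a median of 0.28. Smooth muscle markers (5 genes) were highest on control 2, at 0.83, against -0.24 to 0.04 on the other 7 arrays. Cholangiocyte markers (4 measured of 5 listed) were also highest there, at 0.44. With hydrogen water 4 of 5 smooth muscle markers were lower, with a median of -0.34, and 3 of 4 cholangiocyte markers, with a median of -0.23. Without control 2 and hydrogen water 2 these medians were -0.13 and -0.09. The hepatocyte list (9 measured of 10) lay between -0.04 and 0.06 on all arrays. Stellate cell markers were lower with hydrogen water in 7 of 12, with a median of -0.06; of these Des differed by -0.43. The part of these cell types in the endothelial values was not tested. Sinusoid-enriched genes other than those that macrophages also express (Stab1, Fcgr2b, Mrc1, Maf and Lyve1 left out) had a median difference of 0.14. Lymphocyte markers (7 measured of 8) had a median of -0.03, with Cd8a at 0.30 and Ncr1 at -0.23, platelet markers (4 of 5) a median of -0.05 and erythroid markers (2 of 5) a median of 0.07.

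**Figure D4:**
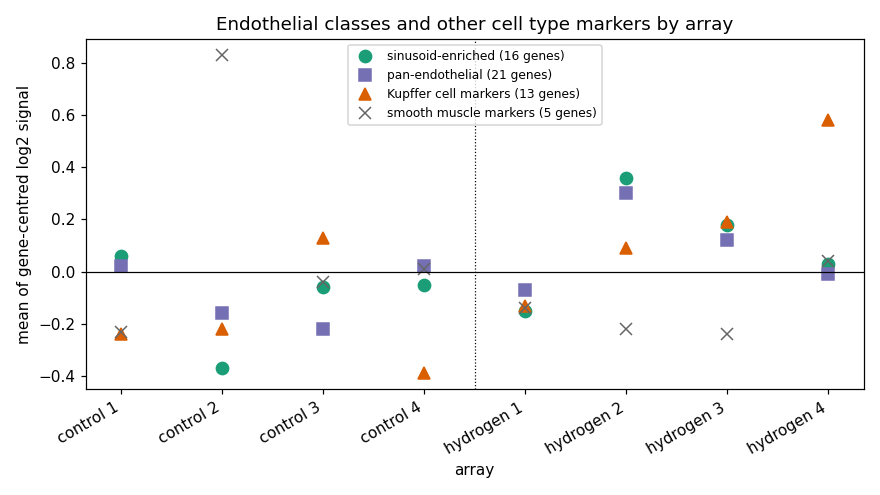
Mean of gene-centred log2 signal on each of the 8 arrays for 16 sinusoid-enriched genes, 21 pan-endothelial genes, 13 Kupffer cell markers and 5 smooth muscle markers. Both endothelial classes peak on hydrogen water 2 (0.36 and 0.30), Kupffer markers on hydrogen water 4 (0.58) and smooth muscle markers on control 2 (0.83).

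Genes of the endothelial pathways outside the 37 were read from further lists. Of 18 endothelial transcription factors, 15 had a higher mean with hydrogen water, against 48.7% of all genes tested. Their median log2 difference was 0.18. At an unadjusted p under 0.05, 3.60% of all genes were called higher and 3.57% lower. Of the 18, 3 were higher at that threshold (Ets2 by 0.37, Tfec by 0.30 and Gata2 by 0.26) and 1 was lower. That one was Sox7, a partner of Sox18 in vessel development, at 5.15, 5.19, 5.35 and 5.35 in controls and 4.63, 4.91, 5.02 and 4.87 with hydrogen water. Its hydrogen water arrays all lay below the controls, with a difference of -0.40 (SE 0.11, limma adjusted p = 0.623). In that direction 2.01% of all genes did not overlap. The groups of Gata2 did not overlap either, in the higher direction, where 1.76% of all genes did not. Its highest control was 5.24 and its lowest hydrogen water array 5.30. A further list of 28 endothelial genes had 17 higher and 11 lower, with a median of 0.04. Of these the endothelial membrane gene Cyyr1 and the TGF-beta binding protein Ltbp4 were higher at an unadjusted p under 0.05, by 0.36 and 0.28. Without control 2 and hydrogen water 2, 12 of the 18 factors were higher, with a median of 0.09, against 48.3% of all genes. In that fit the list of 28 had 12 higher and 16 lower, with a median of -0.02.

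Lists of ligands and downstream genes had medians between -0.07 and 0.13. Ligands and adaptors of the VEGF and angiopoietin receptors (14 genes) had a median log2 difference of 0.02, with 8 higher and 6 lower, and 0 were called at an unadjusted p under 0.05 in either direction. BMP and TGF-beta pathway genes (15) had a median of 0.04, and 0 were called there either. Notch pathway genes (11) had a median of 0.09, with 1 higher at that threshold, the Notch target Hey1, by 0.27. Wnt receptors and targets (13) had a median of 0.13, with 2 higher, the pericentral enzyme Glul by 0.33 and the co-receptor Lrp6 by 0.30. Adrenomedullin and Slit pathway genes (10 measured of 11) had a median of -0.07, with 3 higher and 7 lower, and markers of large-vessel endothelium (7 measured of 8) a median of -0.01. Markers of lymphatic endothelium (3 measured of 4) had 2 higher and 1 lower, with a median of 0.22 and a range of -0.36 to 0.50. The highest of these was Prox1, which hepatocytes also express, at 9.87 in controls. None of these genes passed the adjusted threshold of limma. At an unadjusted p under 0.05, 3.60% of all genes were called higher and 3.57% lower.

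Promoter windows were read for the genes at hand because ETS family factors are known to act at many endothelial promoters. RefSeq windows on GRCm38.p6 were held for 20 of the 37 genes (22 windows, since Egfl7 has 3), and the 250 bases before each start were searched on both strands. The letters AGGAAG, a form of the ETS motif, or their reverse complement CTTCCT were in 14 of 22 windows, or 63.6%, and in 29.5% of the 32851 windows of the same length in the table. Other or shorter forms of the ETS motif were not searched. A motif of GATA factors, searched as AGATAA, was in 0 of 22 windows, beside 9.99% of all windows. The letters AACAAT, known from SOX factors, were in 3 (Calcrl, Emcn and Tek), beside 9.42%, and TGCTGAC, known from MAF factors, in 2 (Emcn and Tek), beside 3.81%. The searches allowed no mismatch, and matches of different motifs may overlap. The windows of Stab1, Stab2, Eng, Flt1 and Flt4 are printed, the 5 of the 8 genes with an unadjusted p under 0.05 that had an entry. Capitals mark exact matches of AGGAAG or CTTCCT. They lie at chr14:31168642-31168891 (minus strand), chr10:87007943-87008192 (minus strand), chr2:32646345-32646594 (plus strand), chr5:147726012-147726261 (minus strand) and chr11:49609429-49609678 (plus strand), each written 5′ to 3′ along the gene's strand.
Stab1: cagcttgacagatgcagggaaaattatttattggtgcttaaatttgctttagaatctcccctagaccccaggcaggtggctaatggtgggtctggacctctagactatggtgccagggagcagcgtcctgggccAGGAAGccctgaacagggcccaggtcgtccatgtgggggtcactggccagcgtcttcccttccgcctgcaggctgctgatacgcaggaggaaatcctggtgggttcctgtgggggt
Stab2: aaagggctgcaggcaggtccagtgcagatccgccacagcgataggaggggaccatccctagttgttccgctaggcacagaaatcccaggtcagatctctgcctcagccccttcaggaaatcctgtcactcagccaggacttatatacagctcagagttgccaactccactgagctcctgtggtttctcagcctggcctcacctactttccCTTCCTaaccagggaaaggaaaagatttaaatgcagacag
Eng: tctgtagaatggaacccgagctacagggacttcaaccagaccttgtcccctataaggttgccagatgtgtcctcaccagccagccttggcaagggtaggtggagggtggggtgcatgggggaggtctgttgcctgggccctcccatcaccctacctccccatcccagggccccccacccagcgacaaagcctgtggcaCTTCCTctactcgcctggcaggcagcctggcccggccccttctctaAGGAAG
Flt1: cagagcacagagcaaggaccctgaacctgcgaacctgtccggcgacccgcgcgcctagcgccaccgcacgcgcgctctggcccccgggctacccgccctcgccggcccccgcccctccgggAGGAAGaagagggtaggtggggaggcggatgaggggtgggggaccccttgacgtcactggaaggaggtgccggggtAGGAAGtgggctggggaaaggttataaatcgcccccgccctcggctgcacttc
Flt4: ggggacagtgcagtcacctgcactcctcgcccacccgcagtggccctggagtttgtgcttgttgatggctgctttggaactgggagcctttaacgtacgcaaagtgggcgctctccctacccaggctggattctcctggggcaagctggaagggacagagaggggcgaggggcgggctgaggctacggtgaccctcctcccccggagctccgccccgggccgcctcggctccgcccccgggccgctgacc
The exact match began 116 bases before the start in Stab1 and 40 in Stab2, where it lies on the opposite strand. Eng had 2, beginning 52 and 6 bases before the start, and Flt1 had 2, beginning 129 and 53 bases before it. Flt4 had 0 exact matches, which leaves out shorter forms of the motif. A match is a run of letters and not a shown binding site, and no relation between matches and differences was tested.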

How the data were processed

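The authors deposited 1 table that holds a log2 signal for every probe set on each array. The submitters' processing notes name Affymetrix Expression Console. Its version, the normalization and the genome build were not given in the sources used here. The log2 scale was inferred from the range of values, 1.4 to 14.78. Of 35556 probe sets, 21789 name 1 gene, 1621 several and 12146 none here. Symbols from the platform annotation were updated by Entrez identifier in a RefSeq table (GRCm38.p6, names only), which matched 19856 of 19938 genes. Each gene took its single-symbol probe set with the highest mean over the 8 arrays.

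Groups came from the sample titles. The 2 groups were compared by a two-sided moderated test in limma (version 3.58.1, R 4.3.3), with no covariate and 6 residual degrees of freedom. P-values of all 19938 genes were adjusted together by Benjamini-Hochberg, and calls were made below 0.05. The fit was tested on simulated data. Replicate numbers did not pair the arrays. All 37 members are named; of the other lists, genes with an unadjusted p under 0.05 (at most 4 per list), 4 Kupffer markers and Alb. Members and lists were chosen with earlier results of these data known. Arrays have no read depth; their number limits precision. No scan date or other batch is given in the sources used here. Plots used matplotlib 3.10.9.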

Additional observations from a re-analysis of the deposited data

Results flagged for a closer look

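In 3 endothelial genes 1 array stood apart from the other 3 of its group (its gap to the nearest of them took more of the group's range than Dixon's 95% critical value). Flt4 was at 6.39 on control 2, Pecam1 at 7.09 on hydrogen water 2 and Esam at 6.60 on control 3. Of the other named genes, Ncr1, a natural killer cell receptor at a low level, was at 3.81 on hydrogen water 1. Chance flags about 1 in 20 groups, and 118 groups were examined. Without control 2 the Flt4 difference was 0.26.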

How the results depend on the processing

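Quantile normalization, median centring, a filter on dim probe sets, averaging over the probe sets of each gene, allowing those with several symbols, array weights, trended and robust variance and a replicate block were tried, and each array was left out in turn. Control 2 and hydrogen water 2 were also left out together, an alternative chosen after seeing the data. The cause of the changes below was not tested. Over the left-out arrays, genes with an adjusted p under 0.05 numbered 0 to 1 (1 without control 2, 1 without control 3) and genes with unadjusted p under 0.01 (308 with all arrays) 170 to 509; array weights gave 542. Endothelial genes higher at an unadjusted p under 0.05 numbered 2 (both arrays left out) to 13 (without hydrogen water 1). Of all 19938 genes, 779 and 689 were called higher in those fits. Endothelial genes lower numbered 0 to 1, where 486 to 1179 of all genes were lower over the settings. At 0.01, where all genes were not counted by direction, 4 endothelial genes were higher with all arrays and 0 to 3 over left-out arrays. Trended and robust variance gave 2, and median centring and the replicate block 1 each. The counts of genes higher ran from 22 to 32 (8 to 15 sinusoid-enriched, 14 to 18 pan-endothelial), the class medians from 0.02 to 0.32 and 0.05 to 0.27, and their gap from -0.09 to 0.13. Non-overlapping genes numbered 5 higher and 1 lower with both arrays left out, where 6.21% and 6.69% of all genes did not overlap, and 3 higher under median centring, beside 1.00% of all genes. Wnt2 became -0.05 with array weights and -0.02 under both scalings, Rspo3 -0.02 and -0.01 and Emcn -0.03 under both. Ramp2 became -0.05 where several symbols were allowed, through a probe set that also names Malat1. Over left-out arrays the differences ran from -0.04 to 0.35 in Lyve1, -0.02 to 0.31 in Clec4g, -0.18 to 0.22 in Fcgr2b, -0.05 to 0.34 in Dnase1l3, -0.20 to 0.26 in Gpr182, -0.01 to 0.27 in Ehd3, -0.09 to 0.16 in Wnt2, -0.06 to 0.09 in Rspo3, -0.01 to 0.27 in Tek, -0.16 to 0.14 in Emcn, -0.12 to 0.05 in Vwf, -0.03 to 0.24 in Ramp2, -0.18 to 0.02 in Icam2 and -0.20 to 0.09 in Cd34. The other 23 endothelial genes and 19 other named genes kept their direction in all these settings.

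The replicate numbers did not pair the arrays: same-numbered arrays correlated at -0.16 to 0.06. With the replicate block 656 genes were higher and 657 lower at an unadjusted p under 0.05, against 718 and 711.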
